A study of Saccharomyces cerevisiae with 30 samples.

Results

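Cells carrying *mrc1-AQ*, *cdc45-2A* and *pol1-1A* (the triple mutant) were compared with *pol1-1A* cells in hydroxyurea (HU). The comparison asks what *mrc1-AQ* and *cdc45-2A* together change in cells that already carry *pol1-1A*. The comparison takes 4 of the 30 TrAEL-seq libraries of the study, chosen by genotype and time point: 2 biological replicates of the triple mutant and 2 of *pol1-1A*, all in the HU block. Both strains of *Saccharomyces cerevisiae* were arrested in G1 phase with alpha factor and released into rich medium with 200 mM HU. Both strains carry *pol1-1A*, so that by their labels the strains differ only in *mrc1-AQ* and *cdc45-2A*. Wild type and *mrc1-AQ cdc45-2A* libraries of the same block, 2 of each, were used to place origins and as a second background. The mutations are point mutations in *POL1*, *MRC1* and *CDC45* and cannot be checked in summed windows, and whether a strain is a single clone is not given in the sources used here.

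HU inhibits ribonucleotide reductase, so that forks leaving early origins slow down and stall. The checkpoint kinase Rad53 is then activated. It holds back the firing of late origins and acts on stalled forks. Its known partners at forks include Mrc1 (Claspin), the mediator that travels with the helicase and passes the signal from Mec1 to Rad53. They also include Cdc45, a subunit of the replicative helicase, and Pol1, the catalytic subunit of DNA polymerase alpha. The *mrc1-AQ* allele lacks the sites that Mec1 phosphorylates, *cdc45-2A* lacks the motifs that Rad53 binds and *pol1-1A* lacks the site in Pol1 that Rad53 binds. TrAEL-seq labels 3′ DNA ends, preferentially those of the leading strand, so that in an HU block the reads collect where forks have stopped, on either side of each origin that fired.

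The values are reads scaled to library size (RPM, a rate per mapped reads) in windows of 2 kb that start every 200 bp, both strands summed. The triple mutant libraries held 5312127 and 7806407 mapped reads, and the *pol1-1A* libraries 4380849 and 5578332. Replicates 1 and 2 of each strain were processed in different pools, and each pool held 1 library of every strain. *pol1-1A* replicate 1 stood apart from the other libraries. The share of reads over 5 kb from any peak of the wild type or *mrc1-AQ cdc45-2A* profile was 14.4% and 11.97% in the triple mutant and 37.0% and 11.7% in *pol1-1A*, and 69.7% and 65.2% in asynchronous wild type cells. The main results that rest on this library are given with and without it. Without it, *pol1-1A* is replicate 2 alone. Windows hold 70.9% of the mapped reads of that replicate, against 92.4% and 85.0% in the triple mutant. Scaling to mapped reads thus lowers *pol1-1A* replicate 2 in all windows relative to the triple mutant, and values without replicate 1 carry this. The part that the spread of reads between peaks in *pol1-1A* replicate 1 takes in the results was not tested.

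Forks stood closer to origins in the triple mutant than in *pol1-1A*. The fork of an arm is the highest window within 20 kb on 1 side of an origin, measured over 132 arms of the 81 strongest of 136 origins called in the wild type. The median distance was 2600 and 2800 bp in the triple mutant, against 3100 and 3400 bp in *pol1-1A*, so that the libraries of the strains did not overlap. The triple mutant averaged 2700 ± 141 bp and *pol1-1A* 3250 ± 212 bp (SD, n = 2 each), a difference of -550 bp, which was -500 bp within the first pool and -600 bp within the second. An exact two-sided permutation test of 2 against 2 libraries gave p = 0.33, the smallest that it allows. The distance is resolved only in steps of 200 bp. Where an origin had both arms (54 origins), the gap between its forks was 5100 and 5700 bp in the triple mutant and 6200 and 6800 bp in *pol1-1A*.

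**Figure D1:**
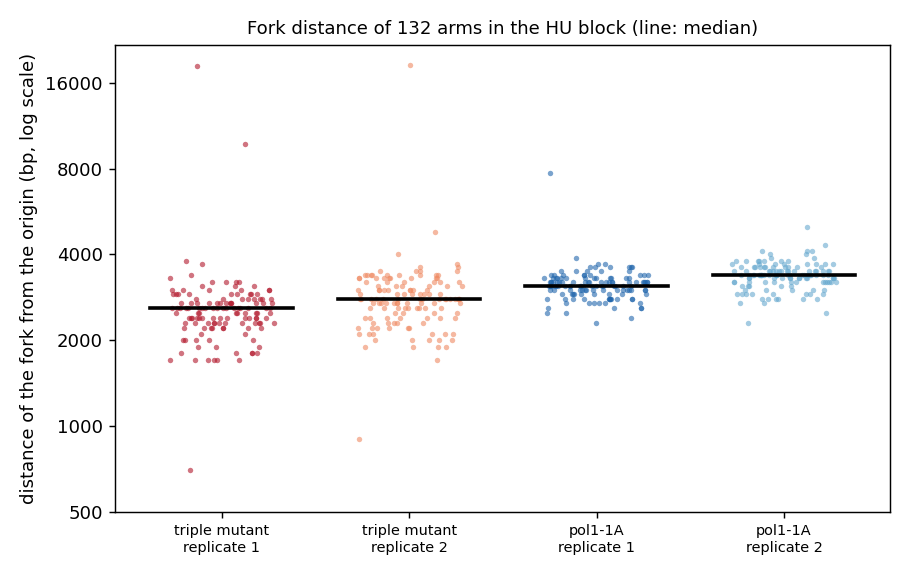
Each point is the distance of the fork from its origin (bp, log scale) in 1 of 132 arms, for the 2 triple mutant and the 2 *pol1-1A* libraries, and the line is the median. The middle 90% of the points lies within 1755 to 3945 bp in all 4 libraries, with medians of 2600 and 2800 bp in the triple mutant below those of 3100 and 3400 bp in *pol1-1A*.

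The shift was also measured arm by arm. In limma on the distances of single arms, with 8 HU block libraries in the fit and Benjamini-Hochberg adjustment over 132 arms, 65 arms (49.2%) were closer in the triple mutant and 1 was farther. The arms that passed as closer moved by 400 to 2200 bp, with a median change of -800 bp. The largest is an arm on chromosome XIV whose forks may not be resolved (below). The forks of 108 arms were closer in both replicates and those of 3 arms were farther in both, and in 82 arms (62.1%) both triple mutant libraries lay closer than both *pol1-1A* libraries. Arms to the left of their origin shifted by a median of -500 bp (28 of 68 passed) and arms to the right by -600 bp (37 of 64 passed). Without *pol1-1A* replicate 2 the total that passed fell to 40 of 132, and in a fit of all 24 strain libraries, which adds those taken after release from HU, it was 6. The spread between arms was wider in the triple mutant, where the middle 90% ran from 1755 to 3200 bp and from 2000 to 3500 bp, against 2600 to 3600 bp and 2800 to 3945 bp in *pol1-1A*.

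Forks of weaker origins shifted most. Arms were divided into 3 sets of 44 by the wild type signal of their origin, a value that uses neither strain compared. In the weakest set the median distance was 2300 and 2350 bp in the triple mutant and 3150 and 3400 bp in *pol1-1A*, with a median change of -850 bp, and 31 arms passed. In the middle set the median change was -450 bp with 21 arms past the threshold, and in the strongest it was -500 bp with 13. The order of these sets is a description and was not tested. Forks close to an origin may not be resolved, which bears on the short distances in the triple mutant.

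Single arms ranged around this. At the origin between *RPC34* and *SWM2* on chromosome XIV (midpoint 635900, build R64), the right fork stood at 700 and 900 bp in the triple mutant, against 3100 and 2900 bp in *pol1-1A* (-2200 ± 160 bp, SE, adjusted p = 9.9e-05 in limma). The left fork of the origin beside *COQ8* on chromosome VII (286000) stood at 1800 and 2200 bp in the triple mutant and 3600 and 3800 bp in *pol1-1A* (adjusted p = 0.00091). The right fork of the origin between *VMA8* and *RML2* on chromosome V (59600) stood at 1800 and 2000 bp, against 3400 and 3600 bp in *pol1-1A* (adjusted p = 0.00032). The right fork of the origin in *YET3* on chromosome IV (330100) stood at 1700 and 1700 bp, against 3300 and 3100 bp in *pol1-1A* (adjusted p = 0.00032). The left fork of the origin in *POB3* on chromosome XIII (137100), which encodes a subunit of the histone chaperone FACT, stood at 1700 and 2100 bp, against 3300 and 3500 bp in *pol1-1A* (adjusted p = 0.00091). In these arms no triple mutant library reached the lowest *pol1-1A* library. The 1 arm called farther was the right arm of the origin in *RUF22* on chromosome VI (199300), where the highest window lay at 18300 and 18500 bp in the triple mutant, against 3100 and 2900 bp in *pol1-1A*. There the highest window belongs to a different place in the arm, and with an arm of 10 kb the change was +200 bp (adjusted p = 0.50).

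The study plots a stretch of chromosome X with ARS1018 and ARS1019, which were taken here to be the origins called at 540300 and 613100. No ARS annotation was used to check these names. The left fork of ARS1018 stood at 2500 and 3500 bp in the triple mutant and 3700 and 3700 bp in *pol1-1A*, and its right fork at 3100 and 3500 bp against 3500 and 3700 bp in *pol1-1A*. The left fork of ARS1019 stood at 2500 and 2700 bp in the triple mutant and 2900 and 3300 bp in *pol1-1A*, and its right fork at 2300 and 2900 bp against 2900 and 3300 bp in *pol1-1A*. Only the left arm of ARS1019 passed (adjusted p = 0.048 in limma), and it lost the call without *pol1-1A* replicate 2 (0.17) or without triple mutant replicate 1 (0.21). With the pool as a block both arms of ARS1019 passed, at an adjusted p of 0.015. Without triple mutant replicate 2 the left arm of ARS1018 and the right arm of ARS1019 passed, at an adjusted p of 0.0057 and 0.019.

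The mean profile around the 81 origins showed the same shift and a shallower valley. Its maxima lay 2400 and 2800 bp from the midpoint on either side in the triple mutant, against 3000 bp and 3200 to 3400 bp in *pol1-1A*. At the midpoint the triple mutant had 485 and 385 RPM, which is 42.2% and 36.4% of its maxima. *pol1-1A* had 116 and 135 RPM at the midpoint, 12.5% and 11.3% of its maxima. Both triple mutant libraries thus held more signal at the origin itself than either *pol1-1A* library, including *pol1-1A* replicate 1 with its high level between peaks. The share of reads within 1 kb of these origins was 4.25% and 3.66% in the triple mutant and 1.06% and 1.54% in *pol1-1A*. The share from 7 to 10 kb was 4.09% and 4.16% in the triple mutant and 5.90% and 5.83% in *pol1-1A*. Neither pair overlapped (exact two-sided permutation p = 0.33 for each, the smallest possible).

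**Figure D2:**
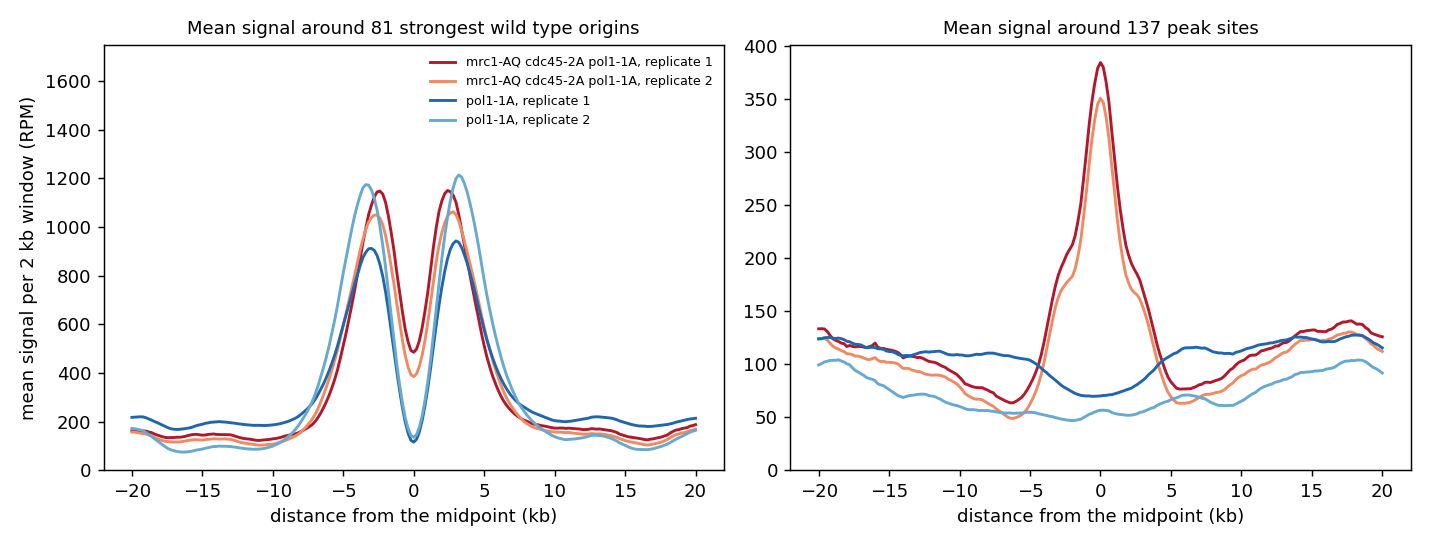
Mean signal (RPM per 2 kb window) against the distance from the midpoint in kb, around the 81 strongest wild type origins on the left and around the 137 peak sites on the right, 1 line per library. At origins the triple mutant has 485 and 385 RPM at the midpoint, above 116 and 135 RPM in *pol1-1A*, and at peak sites it has a central maximum of 385 and 351 RPM where *pol1-1A* has 70.1 and 56.6 RPM.

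More peaks were found in the triple mutant. There were 415 and 423 peaks in the triple mutant, against 302 and 321 in *pol1-1A*, or 419 ± 5.66 and 311.5 ± 13.4 (SD, n = 2 each), a ratio of 1.35 that was 1.37 within the first pool and 1.32 within the second. The exact two-sided permutation p was 0.33, the smallest possible. Peaks near those of the wild type were no more frequent, with 273 and 283 within 5 kb of a wild type peak in the triple mutant and 294 and 302 in *pol1-1A*. The surplus lay elsewhere. It was placed with 137 peak sites, which are peaks of the mean *mrc1-AQ cdc45-2A* profile more than 5 kb from any wild type peak and so were chosen without the 4 libraries compared. Of the triple mutant peaks, 133 and 131 lay within 5 kb of a peak site, against 1 and 15 of the *pol1-1A* peaks, and 9 and 9 against 7 and 4 lay at neither kind of place. At peak sites the mean profile of the triple mutant had 1 central maximum, whereas a wild type origin can hold 1 peak or 2. The numbers of peaks are therefore not numbers of fired origins, and an origin need not count alike in the strains.

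**Figure D3:**
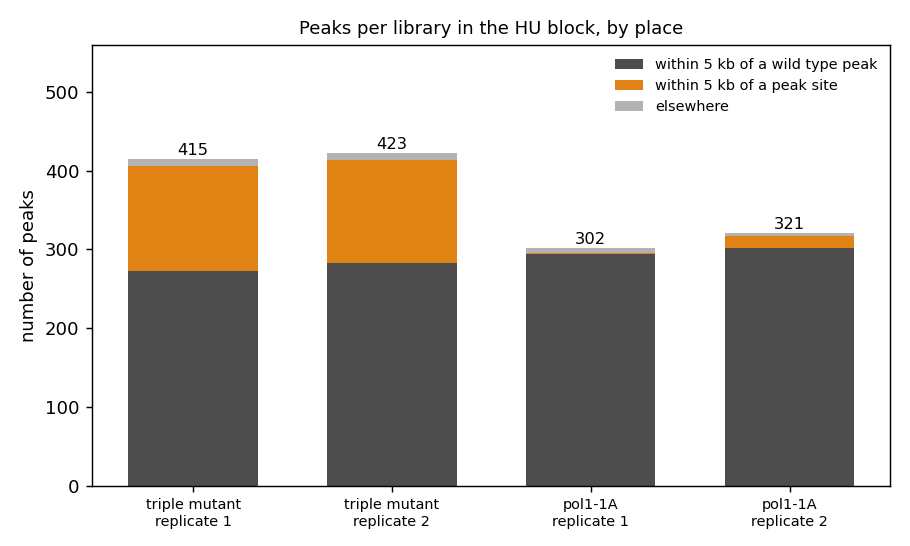
Number of peaks per library, stacked by place: within 5 kb of a wild type peak, within 5 kb of a peak site, or elsewhere. The totals of 415 and 423 in the triple mutant exceed the 302 and 321 of *pol1-1A* by the peaks at peak sites.

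Peaks that both libraries of a strain shared were compared in turn. The triple mutant had 387 peaks found in both libraries within 2 kb, of which 109 (28.2%) had no *pol1-1A* peak within 5 kb in either library. Of these 109, 104 lay within 5 kb of a peak site. Conversely, *pol1-1A* had 291 peaks found in both libraries, of which 5 (1.72%) had no triple mutant peak within 5 kb. The 5 triple mutant peaks away from all peak sites were in *VVS1*, *USE1*, *APL5* and *JIP5* and between *SNR36* and *GSP2*, and the signal there also stood above the wild type in *mrc1-AQ cdc45-2A*, as at *VVS1*, where the window of 2 kb held 169 and 159 RPM in the triple mutant, 157 and 111 RPM in *mrc1-AQ cdc45-2A*, 7.31 and 11.1 RPM in *pol1-1A* and 12.8 and 19.7 RPM in the wild type.

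The peak sites held far more signal in the triple mutant. Over 10 kb the median site of the triple mutant had 886 and 776 RPM, and that of *pol1-1A* 351 and 198 RPM. Both triple mutant libraries exceeded both *pol1-1A* libraries at 127 of 137 sites, and over all 273 origin and peak site windows this held for 79.5%. In limma-trend on log2(RPM + 1) over these 273 windows, 71.4% were higher in the triple mutant, and 123 of the 137 sites were among them and none was lower. The median change at sites was 1.78 on the log2 scale, or 3.43-fold, and without *pol1-1A* replicate 1 it was 2.09, with all 137 past the threshold. In narrower windows of 6 kb, of which 88.6% of the 273 were higher, the median change at sites was 2.25 and 129 sites passed. Quantile normalization, which forces 1 distribution on all libraries, left 52 of the 273 windows higher and 46 lower. A peak was called within 2 kb of 120 and 118 sites in the triple mutant, against 1 and 10 in *pol1-1A*.

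Even so, the sites stayed well below the wild type origins. In the triple mutant the median site had 23.9% and 21.8% of the signal of the median wild type origin, against 14.2% and 6.73% in *pol1-1A*. Reads within 5 kb of a site made up 15.2% and 14.6% of all reads in windows in the triple mutant and 6.38% and 5.12% in *pol1-1A*. These windows cover 11.5% of the genome measured and held 10.8% and 10.7% of the reads of asynchronous cells. The triple mutant thus stood above that level and *pol1-1A* below it (exact two-sided permutation p = 0.33 between the strains, the smallest possible).

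The gene names of the sites with the largest change serve here as addresses. In *SMC3* (cohesin) on chromosome X (midpoint 300600) the window held 1199.7 and 1011 RPM in the triple mutant and 133 and 205 RPM in *pol1-1A* (log2 change 2.73 ± 0.32, SE, adjusted p = 4.9e-05 in limma-trend). In *SMC6* (the Smc5/6 complex) on chromosome XII (887200) it held 1167 and 1092 RPM, against 169.8 and 189 RPM in *pol1-1A*, a log2 change of 2.65. In *SWI5*, a transcription factor of late mitosis, on chromosome IV (750600) it held 1188 and 1051 RPM, against 198 and 169.6 RPM in *pol1-1A*, a log2 change of 2.60. In all 3 the groups were far apart. The next were in *TOF1* on chromosome XIV (125600), which encodes the partner of Mrc1 in the fork protection complex, in *MIL1* on chromosome VI (68000) and between *BXI1* and *YPT11* on chromosome XIV (60000), with log2 changes of 2.54, 2.44 and 2.401. The smallest change was beside the ribosomal DNA on chromosome XII (450200), with 398 and 298 RPM in the triple mutant and 406 and 201 RPM in *pol1-1A*, which did not pass (log2 change 0.27, adjusted p = 0.55).

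Sites differed from the wild type origins in where they lay. A gene held the midpoint of 109 of 137 sites (79.6%), against 45 of 136 wild type origins (33.1%), while 73.5% of all covered bins of 200 bp lie in a gene. The midpoint of a site is the top of a single peak and not the middle of a pair of forks, so that the places are not determined alike. The median site was 37600 bp from the nearest wild type origin, and 38000 bp from the nearest other site. Chromosome IV held 20 sites and chromosome III none.

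By RPM wild type origins rose too, the weak ones most. Their median window of 10 kb held 3702 and 3557 RPM in triple mutant cells and 2472 and 2944 RPM in *pol1-1A* cells, and in the same fit 72 of 136 were higher and 1 was lower, with a median log2 change of 0.39 (0.22 without *pol1-1A* replicate 1). When only origins from pairs of peaks were tested (144 windows, the 136 and 8 more called only in *mrc1-AQ cdc45-2A*), 53.5% were higher. The count depends on scaling, with 38 of 136 higher, at a median log2 change of 0.22, when libraries were scaled to the reads inside windows. After quantile normalization 35 of 144 were higher and 35 lower. The change without *pol1-1A* replicate 1 was not computed on reads inside windows, which hold only 70.9% of the mapped reads of *pol1-1A* replicate 2. Scaled to the spike-in, 2 of 144 passed, at a median log2 change of 0.77 against 0.39 as deposited. This scaling applies 1 factor to all libraries of a pool. The larger number of mapped reads of the triple mutant in both pools therefore remains in the 0.77, which is no calibrated measure of a larger rise. In the set with the weakest wild type signal, 44 of 45 origins were higher, with a median of 2656 and 2516 RPM in the triple mutant and 1268 and 1569 RPM in *pol1-1A*, a median 1.93-fold change (log2 change 0.95, or 0.90 without *pol1-1A* replicate 1). In the middle set 28 of 45 were higher and 1 was lower, at a median of 1.31-fold (log2 change 0.39, or 0.27 without *pol1-1A* replicate 1). In the set with the strongest wild type signal none of 46 passed, with 4617 and 4372 RPM in the triple mutant and 3682 and 4581 RPM in *pol1-1A*. Their median log2 change was 0.11, and -0.05 without *pol1-1A* replicate 1. Signal was accordingly more even across origins in the triple mutant, where the 90th percentile was 2.11 and 1.95 times the 10th, against 3.62 and 3.65 times in *pol1-1A*.

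**Figure D4:**
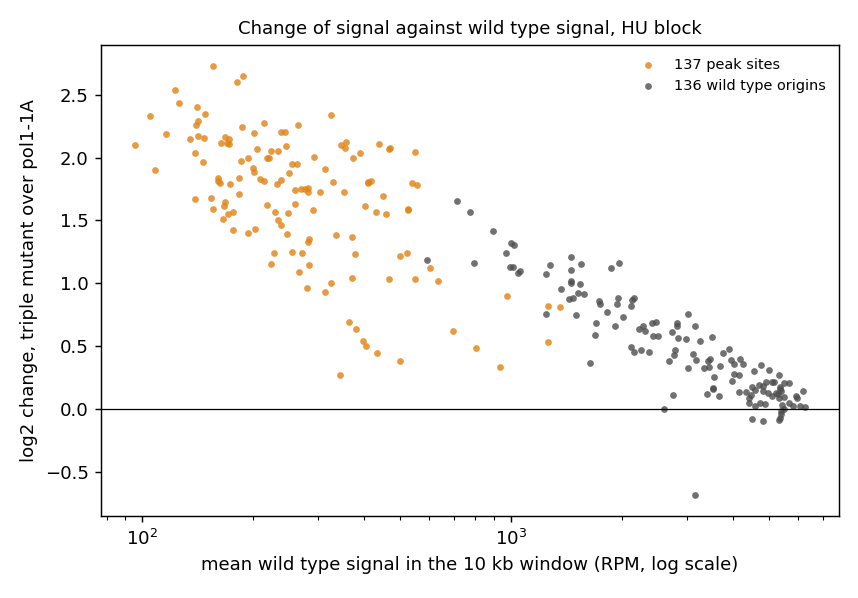
Change of signal in 10 kb windows (log2, triple mutant over *pol1-1A*) against the mean wild type signal (RPM, log scale), for 137 peak sites and 136 wild type origins. The change is largest where wild type signal is low, with a median of 1.78 at sites, and near 0 at the strongest origins, and 1 origin lies at -0.69.

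The 6 wild type origins with the largest change were all of this weak kind. The window at the origin between *SLN1*, an osmosensor, and *ATG32* on chromosome IX (74000) held 2449.9 and 2326 RPM in the triple mutant and 664 and 860.5 RPM in *pol1-1A* (log2 change 1.66 ± 0.15, SE, adjusted p = 1.7e-05 in limma-trend). The origin between *UBP12* and *ELO1* on chromosome X (67700) held 2386 and 2393 RPM, against 729 and 892 RPM in *pol1-1A*, a log2 change of 1.57. The others lay between *YOR296W* and *TIM18*, between *RBS1* and *PPH22*, between *SNR40* and *CAF40* and in *TOS3*, with log2 changes of 1.41, 1.32, 1.30 and 1.24. In each of the 6, every triple mutant library had more than 2.0 times the signal of every *pol1-1A* library. Of the 8 origins called from a pair of peaks only in *mrc1-AQ cdc45-2A*, 4 were higher (50.0%, against 53.5% over all 144 origin windows) and none was lower. The largest was between *YGR038C-B* and *YGR039W* on chromosome VII (572300), with 1401 and 1430.5 RPM in the triple mutant and 296 and 411 RPM in *pol1-1A* (log2 change 2.02). The others, in *DNF2*, in *RDH54* and between *SUP16* and *NOT5*, rose by 1.66, 1.03 and 0.84 on the log2 scale. In narrower windows of 6 kb they changed by only 0.14, 0.06 and -0.02, and none of these 3 passed. The origin between *SUP16* and *NOT5* lies 5700 bp from a wild type origin, so that their 10 kb windows overlap.

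In windows of 10 kb a single origin passed as lower in the main fit. At the origin between *RPC34* and *SWM2* on chromosome XIV (635900), the 10 kb window held 1670.1 and 1487 RPM in triple mutant cells, against 2331 and 2757 RPM in *pol1-1A* (log2 change -0.69 ± 0.13, SE, adjusted p = 0.00074 in limma-trend). The change lay in the outer parts of the window. From 627001 to 646000, 13 windows of 1 kb were lower and 3, around the midpoint, were higher. The window from 631001 to 632000 held 20.5 and 11.5 RPM in the triple mutant and 316 and 381 RPM in *pol1-1A*, and that from 635001 to 636000 held 252 and 175 RPM in the triple mutant and 26.7 and 46.8 RPM in *pol1-1A*. Separate peaks on either side in *pol1-1A* thus stood against signal around the midpoint in the triple mutant. In a narrower window of 6 kb around the midpoint the change was 0.08 and did not pass. At that width 1 wild type origin passed as lower, and it was a different one.

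Over the whole genome, most windows next to the centres of origins and peak sites rose. Fewer windows passed as lower in the main fit, without the pool as a block. Most of these lay 4 to 10 kb from a wild type origin. Of 11760 windows of 1 kb, 1498 (12.7%) were higher in the triple mutant in limma-trend and 208 (1.77%) were lower, and in 19.3% both triple mutant libraries lay above both *pol1-1A* libraries. With the pool as a block 1925 were higher and 1173 lower. The median window changed by -0.62 on the log2 scale. Without *pol1-1A* replicate 1 it changed by +0.17, with 1943 higher and 211 lower, and without *pol1-1A* replicate 2 by -1.32, with 1701 higher and 6343 lower. The number of falls thus differed widely with the *pol1-1A* library used, and the number of rises much less. The median without replicate 1 rests on *pol1-1A* replicate 2 alone. Windows hold 70.9% of the mapped reads of that library, against 92.4% and 85.0% in the triple mutant, which bears on the sign of that median. Quantile normalization gave 1457 higher and 1439 lower. Scaling to the spike-in, which leaves differences in mapped reads within a pool, gave 1331 higher and 11 lower. Without triple mutant replicate 1 the total was 1039.

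The rises were concentrated at origins and sites. Windows within 1 kb of a wild type origin were higher in 252 of 263 cases, with a median log2 change of 2.42, and windows within 1 kb of a peak site in 252 of 274, with a median of 2.60. Windows within 5 kb of a wild type origin were 11.6% of all windows and held 560 of the 1498 rises. Those within 5 kb of a peak site were 11.4% and held 638. Of the rest, 108 lay within 5 kb of another wild type peak (9.2% of windows) and 192 elsewhere (67.9%). The falls that passed in the main fit had another place, with 170 of 208 at 4 to 10 kb from a wild type origin. There 13.6% of windows lay. Of the 208, 13 were those at the origin on chromosome XIV. The more numerous falls with the pool as a block, after quantile normalization or without *pol1-1A* replicate 2 were not placed, nor were those of the other settings. At 10 to 15 kb the *pol1-1A* replicates differed, with medians of 70.8 and 13.8 RPM per window, which bears on what can pass there. The counts of falls therefore do not tell whether signal also fell at that distance.

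**Figure D5:**
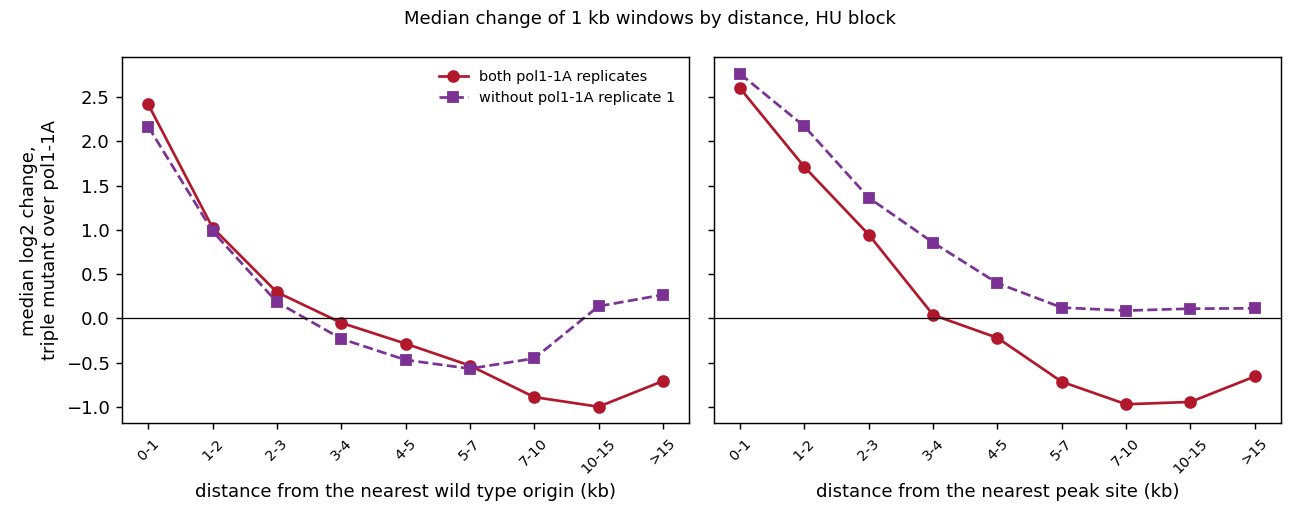
Median change of 1 kb windows (log2, triple mutant over *pol1-1A*) by distance in kb from the nearest wild type origin (left) and the nearest peak site (right), with both *pol1-1A* replicates and without replicate 1. Both lines start above 2 next to the midpoint and cross 0 near wild type origins between 2 and 4 kb, while beyond 10 kb the line falls to -0.997 around wild type origins with both replicates and lies above 0 without replicate 1. The line without replicate 1 rests on *pol1-1A* replicate 2, with 70.9% of its mapped reads in windows.

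The distance profile was alike for both ways of treating *pol1-1A* replicate 1 near origins. From 0 to 1 kb of a wild type origin the median log2 change was 2.42, or 2.17 without that replicate, and at 5 to 7 kb it was -0.53 or -0.57. Beyond 10 kb the values parted, with -0.997 and +0.14 at 10 to 15 kb. The second value rests on *pol1-1A* replicate 2 alone, with 70.9% of its mapped reads in windows, which bears on its sign. Around peak sites the change fell off from 2.60 within 1 kb to 0.04 at 3 to 4 kb, or from 2.76 to 0.86 without that replicate.

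Of the 8 windows with the largest rise, 7 lay within 2.5 kb of a peak site. The largest was in *MRS3*, a mitochondrial iron transporter gene, on chromosome X (161001 to 162000), with 276 and 239 RPM in the triple mutant and 4.57 and 15.1 RPM in *pol1-1A* (log2 change 4.77, adjusted p = 1.1e-05 in limma-trend). That window lay 3700 bp from a wild type peak, between low humps of wild type and *pol1-1A* signal on either side that had not been paired as an origin, and in *mrc1-AQ cdc45-2A* it held 250.2 and 195 RPM. The window in *TRM13* on chromosome XV (84001 to 85000) held 422 and 451 RPM in the triple mutant and 20.1 and 20.6 RPM in *pol1-1A*, a log2 change of 4.36. The others were in *YNL115C*, *YKL183C-A*, *QNS1*, *SMC3* and *XBP1* and between *MTC2* and *YKL097C*, with log2 changes of 4.30 to 4.55. All 8 kept their call in every setting tried that tests these windows, with *pol1-1A* at 20.6 RPM or less in each.

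The largest fall was that at 631001 on chromosome XIV, with a log2 change of -4.41. Outside chromosome XIV falls were smaller, and the largest were in *ATG14* on chromosome II (493001 to 494000), with 21.3 and 15.1 RPM in the triple mutant and 99.98 and 74.6 RPM in *pol1-1A* (log2 change -2.21, adjusted p = 0.0025 in limma-trend), in *STB2*, in *FRA1*, between *FMO1* and *ROF1*, in *MPT5* and between *MLP2* and *RPL40A*, the last 5 with log2 changes of -1.96 to -1.76. The windows in *ATG14* and at 631001 kept their calls without any single library. The other 6 did not, and scaling to the spike-in ended the calls of 5 of the 8 named falls. Without triple mutant replicate 2 the adjusted p was 0.085 at 643001 on chromosome XIV, 0.23 in *STB2*, 0.37 between *FMO1* and *ROF1*, 0.078 in *MPT5* and 0.27 between *MLP2* and *RPL40A*. Without triple mutant replicate 1 it was 0.071 in *FRA1*, 0.073 between *FMO1* and *ROF1* and 0.13 between *MLP2* and *RPL40A*, and without *pol1-1A* replicate 1 it was 0.12 in *STB2* and 0.13 between *FMO1* and *ROF1*.

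The total share of reads near wild type origins had no common direction. Within 5 kb it was 54.5% and 55.7% in the triple mutant and 38.5% and 59.1% in *pol1-1A*, higher in the triple mutant in the first pool and lower in the second (exact two-sided permutation p = 1.0). Within 3 kb it was 35.7% and 34.5% in the triple mutant and 18.8% and 27.1% in *pol1-1A*, and the libraries did not overlap. Near the 8 origins called only in *mrc1-AQ cdc45-2A* it was 2.19% and 2.22% in the triple mutant and 1.54% and 2.21% in *pol1-1A*, whose lower value is that of replicate 1. Within 30 kb of chromosome ends the shares were 2.27% and 2.29% in the triple mutant and 3.63% and 2.23% in *pol1-1A*.

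The effect of *mrc1-AQ cdc45-2A* was then set beside its effect in cells with wild type *POL1*. There the forks stood at 2300 and 2400 bp in *mrc1-AQ cdc45-2A* and 3000 and 3300 bp in the wild type, a difference of -800 bp against -550 bp in *pol1-1A* cells. The effect was thus 200 and 300 bp smaller in *pol1-1A* cells in the 2 pools, a sign that exact flips over 2 pools can test only to p = 0.5. By the median position of the signal the pools did not share this sign. The medians were 3402 and 3038 bp in *mrc1-AQ cdc45-2A* and 4014 and 3776 bp in the wild type. In the triple mutant they were 3198 and 3441 bp, against 4734 and 3819 bp in *pol1-1A*. So measured, the effect in *pol1-1A* cells was larger in the first pool and smaller in the second. For peaks the ratio was 1.36 with wild type *POL1* and 1.35 in *pol1-1A* cells, and the ratio in *pol1-1A* cells minus that with wild type *POL1* was 0.0235 in the first pool and -0.0585 in the second. In the interaction test of limma, 0 of 11760 windows of 1 kb passed (0%), with 369 at an unadjusted p under 0.05, and in edgeR's quasi-likelihood test on recovered reads 0 passed, with 451 unadjusted. With the pool as a block 8 windows passed. Over the 273 origin and peak site windows 0 passed, with 10 unadjusted in limma-trend and 7 in edgeR. These counts do not show that the effects are equal. Per site the changes in the 2 backgrounds ran along each other, with r = 0.943 over 137 peak sites and 0.985 over 136 wild type origins. This is a description across places that share pools, with sites chosen on *mrc1-AQ cdc45-2A* and origins on the wild type. The levels of the changes were not the same. At wild type origins 72 of 136 were higher and 1 lower in *pol1-1A* cells, with a median log2 change of 0.39, and 44 were higher and 11 lower with wild type *POL1*, with a median of 0.03. The log2 change in *pol1-1A* cells was the higher value at all 136 origins, by 0.04 to 0.53 with a median of 0.37, and by a median of 0.52 in the first pool, which holds *pol1-1A* replicate 1, and 0.19 in the second. The wild type libraries that enter this difference are those in which the origins were called, and the part this choice takes was not tested. At peak sites the median difference was -0.16, with -0.43 in the first pool and 0.05 in the second.

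In 1 of 132 arms (0.758%) the change differed between the backgrounds. The right fork of the origin in *TFS1* on chromosome XII (513300) stood at 3700 and 3700 bp in the triple mutant and 3900 and 3900 bp in *pol1-1A*, against 1700 and 1500 bp in *mrc1-AQ cdc45-2A* and 3700 and 3900 bp in the wild type. The interaction was +2000 bp (adjusted p = 0.0020 in limma). Its left fork moved alike in both, by -1200 bp.

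The loci of the genes studied were read last, as windows of the genome and not as a check of the alleles. Windows over *CDC45* held a mean of 173.5 and 136 RPM in the triple mutant and 24.3 and 19.4 RPM in *pol1-1A*, and all 3 were higher, with a peak site in the gene (chromosome XII, 344800). Windows over *RAD53* held 188 and 160.1 RPM in the triple mutant and 30.9 and 21.8 RPM in *pol1-1A*, and all 4 were higher. Over *POL1* the values were 4.74 and 3.84 RPM in the triple mutant and 27.0 and 4.02 RPM in *pol1-1A*, and over *MRC1* 8.10 and 5.79 RPM in the triple mutant and 69.0 and 8.25 RPM in *pol1-1A*. No window of these last genes passed, and only *pol1-1A* replicate 1 stood above the triple mutant by more than a few RPM.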

How the data were processed

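TrAEL-seq signal was analysed in 4 libraries, with 4 more of the same HU block in each fit. Strain, time, replicate, pool and adaptor came from the labels, and numbers pair libraries because a number marks a shared pool (the deviations of the triple mutant and *pol1-1A* correlated at 0.392). The authors deposited signal normalized to mapped reads (RPM). Before that they trimmed and mapped reads to build R64 (Trim Galore 0.6.5 and Bowtie2 2.4.1 in the submitters' processing notes), removed duplicates, truncated reads to 1 nucleotide, left out repeated regions and summed both strands in windows. Windows hold between 70.9% (*pol1-1A* replicate 2) and 92.4% (triple mutant replicate 1) of each library's mapped reads, which bears on scaling. Scaling to the spike-in gives all libraries of a pool the same factor, so that differences in mapped reads within a pool remain. Whole reads were recovered for 100% of the values and split into bins of 200 bp, so that the count test of edgeR served as an alternative.

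Profiles were smoothed over 15 windows (Savitzky-Golay, order 2), a stand-in for loess, and peaks stood out by 1 times the library's mean window or more. Origins were midpoints of wild type peak pairs 4 to 9 kb apart, since the ARS list of the study was not used here. The lowest 40% by signal were left out of the fork distances, as were arms with a second peak above 25% of the highest value. Tests were limma (3.58.1), limma-trend on log2(RPM + 1), edgeR (4.0.16) and exact permutations (scipy 1.17.1 for peaks), with adjusted p under 0.05 as the threshold. Fold changes are on the log2(RPM + 1) scale, which understates low windows. In 11760 simulated windows of 1 kb, limma-trend recovered 88.0% of 4-fold rises and 74.0% of 4-fold falls, with 50 windows in each class. Of 2-fold changes it recovered 4.0% of rises and 8.0% of falls. Apart from these changes, each simulated window had the same mean and spread in all libraries, without pools or a library that stands apart. The *pol1-1A* libraries correlated at 0.811 and those of the triple mutant at 0.979, so that these rates may not hold for the data. Windows, origins and arms were named by rank of change past the threshold, with RefSeq R64 gene names. Peak sites, their alternatives and the interaction tests of arms and origins were added after the data were seen. Origins, lists and tests were chosen with earlier results of these data known.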

Additional observations from a re-analysis of the deposited data

Results flagged for a closer look

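The change of fork distance differed between backgrounds in 1 of 132 arms, the right arm of the origin in *TFS1* on chromosome XII (513300), by 2000 bp. The triple mutant minus *pol1-1A* was -200 bp there and *mrc1-AQ cdc45-2A* minus wild type was -2200 bp, with an adjusted p of 0.0020 for the difference in limma. With the pool as a block 1 arm also passed. What sets this arm apart was not tested.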

How the results depend on the processing

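The fork distance was closer and the number of peaks higher in the triple mutant under every setting tried. The difference of fork distance was -900 bp with no origin left out and -957 bp by the median position of the signal (-1536 bp in the first pool, -378 bp in the second and -499.7 bp without *pol1-1A* replicate 1), and the ratio of peaks was 1.15 with a prominence of 2 times the mean, 1.51 with 3 times the median, 1.25 with 50 RPM and 1.26 with a minimum distance of 4 kb. Leaving out 1 library gave -400 to -700 bp and ratios of 1.31 to 1.39. Arms that passed numbered 6 in a fit of 24 libraries, whose spread includes the times after release, and 160 of 226 with no origin left out, with 40 to 75 when 1 library was left out.

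Windows of 1 kb that passed numbered 2896 after quantile normalization (1457 higher, 1439 lower), 2747 in the fit of 24 libraries, 891 of 5936 with windows of 2 kb, 1039 to 8044 without 1 library, 1342 scaled to the spike-in (1331 higher, 11 lower) and 1981 in edgeR. The replicate block, with the pool as block, gave 3098, and 3956 when also scaled to the reads inside windows (1763 higher, 2193 lower) or 2955 without *pol1-1A* replicate 1. It left fork distance, peak numbers and shares at the same means and changed no other count of calls by over 1.5 times, except that 8 windows of 1 kb passed the interaction, where 1 passed with spike-in scaling. Under the block 766 windows of 1 kb, 41 origin and site windows and 15 arms had an unadjusted interaction p under 0.05, against 369, 10 and 9 without it. Scaled to the spike-in, 2 origin windows passed, with a median log2 change of 0.77 that holds the difference in mapped reads within a pool. Origin windows that passed numbered 39 scaled to the reads inside windows, 120 with windows of 6 kb and, after quantile normalization, 70 (35 higher, 35 lower). They numbered 62 to 100 without 1 library. With the peak sites, 98 of 273 passed after quantile normalization, which gives all libraries the same distribution, and 163 to 212 without 1 library.

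The share near wild type origins differed by -3.97 points without *pol1-1A* replicate 1 (-3.97 to 16.7 over the libraries left out). The share near origins called only in *mrc1-AQ cdc45-2A* differed by -0.0036 points without that replicate (-0.0036 to 0.663 over the libraries left out) and by -0.0923 with windows of 6 kb. After quantile normalization the origin in *RDH54* changed by -0.40 and that between *SUP16* and *NOT5* by -0.25 (adjusted p = 0.028), and in a window of 6 kb the last changed by -0.0153. The causes were not tested. With 2 libraries a strain, exact tests cannot reach 0.05, and p-values measure the spread of these libraries.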
